A study of Mus musculus with 2 samples.

Results

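The forkhead genes encode transcription factors that share the forkhead domain, a winged-helix fold that binds DNA. The family is divided into subfamilies named by letters, and its members act in settings as different as endoderm and mesoderm formation, brain patterning, the cell cycle and the response to insulin. Some, such as the FoxA proteins, can bind their sites in closed chromatin, and FoxO proteins are held in the cytoplasm when growth factor signalling is active. Several forkhead genes that act in embryonic patterning lie in small clusters on the same chromosome.

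All entries of the deposited expression table whose gene symbol is that of a forkhead gene were taken, whatever their status. This gave 40 of the 29126 entries and 39 gene symbols, since Foxn1 has 2 entries. Of the 40, 2 entries join a forkhead gene with another gene, Foxm1 with 4933413G19Rik and Foxp3 with 4930524L23Rik, and their values cannot be divided between the genes. Messenger RNA had been sequenced from 1 library of Dnmt1+/+ and 1 library of Dnmt1-/- mouse embryonic fibroblasts (MEFs), which are cultured connective tissue cells of the embryo. The Dnmt1-/- cells carry 2 copies of a hypomorphic Dnmt1 allele, a mutant with reduced function of the gene for the main maintenance DNA methyltransferase. Both cell types also lack p53, since they are homozygous null for trp53. The strain is given as unknown, and the age, sex and body region of the embryos are not given in the sources used here. Each value is an RPKM, the reads on a gene scaled by its length and by the mapped reads of the library, and each change is the difference of log2(RPKM + 0.1), Dnmt1-/- minus Dnmt1+/+. With 1 library per genotype there is no spread between replicates, so no test was made and every value describes these 2 libraries.

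Dnmt1 itself was at 65.2 RPKM in the Dnmt1+/+ library and at 14.5 RPKM in the Dnmt1-/- library, with a log2 change of -2.16. The median log2 change of all 11244 genes kept (status OK, a symbol and at least 1 RPKM in one library) was -0.14 with a 5th percentile of -1.53 and a 95th percentile of 1.81. The libraries also differ in sex-linked RNA. Xist was at 0.00648 RPKM in Dnmt1+/+ and at 37.0 RPKM in Dnmt1-/-, and the Y-linked Ddx3y and Eif2s3y, with 13.9 and 18.8 RPKM in the Dnmt1+/+ library, were at 0 in the other. Of the Hox genes, which mark body position, 5 of 7 HoxC entries were higher and 6 of 9 HoxB entries lower in Dnmt1-/-, each by more than 2-fold. By the same measure 4 of 7 HoxA entries were higher and 1 lower, and 2 of 5 HoxD entries were higher and 2 lower. Over all genes kept, 8.47% were higher and 10.9% lower. Hox entries that passed the filter through their Dnmt1-/- value alone were not set apart. Genotype and any other difference between the 2 cultures cannot be told apart, and neither can fewer cells of a type and less RNA per cell.

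Forkhead RNA in these fibroblasts came from a limited part of the family. Of the 40 entries, 28 had the status OK, 20 of these had at least 1 RPKM in either library, and 10 were at 0 in both. Among the 20 entries kept, 4 were higher by more than 2-fold in the Dnmt1-/- library (Foxf2, Foxf1a, Foxq1 and 1 of the Foxn1 entries), where 8.47% of all genes kept were. Another 2 were more than 2-fold lower, Foxc1 among them, where 10.9% of all genes kept were. The other 14 stayed within 2-fold. The median log2 change of the 20 entries was 0.02, and 12 lay above and 8 below the median of all genes kept. The sum over all 40 entries was 209.5 RPKM in Dnmt1+/+ and 178.0 RPKM in Dnmt1-/-.

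The higher and the lower entries differed in their level in Dnmt1+/+ MEFs, which the filter in part sets. An entry that is lower in Dnmt1-/- can pass it only with at least 1 RPKM in Dnmt1+/+. Of the 16 entries with at least 1 RPKM in Dnmt1+/+, none was more than 2-fold higher, against 4.35% of all such genes, and 2 were more than 2-fold lower, against 11.5%. Their median log2 change was -0.16, and that of all genes at this level was -0.18. The other 4 entries were under 1 RPKM in Dnmt1+/+ and passed the filter through their Dnmt1-/- value alone, so their higher value is in part set by the filter, and 88.1% of the 553 genes that passed in this way were more than 2-fold higher as well. Requiring a mean of at least 1 RPKM left Foxf2 and Foxn1 as the higher entries.

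**Figure D1:**
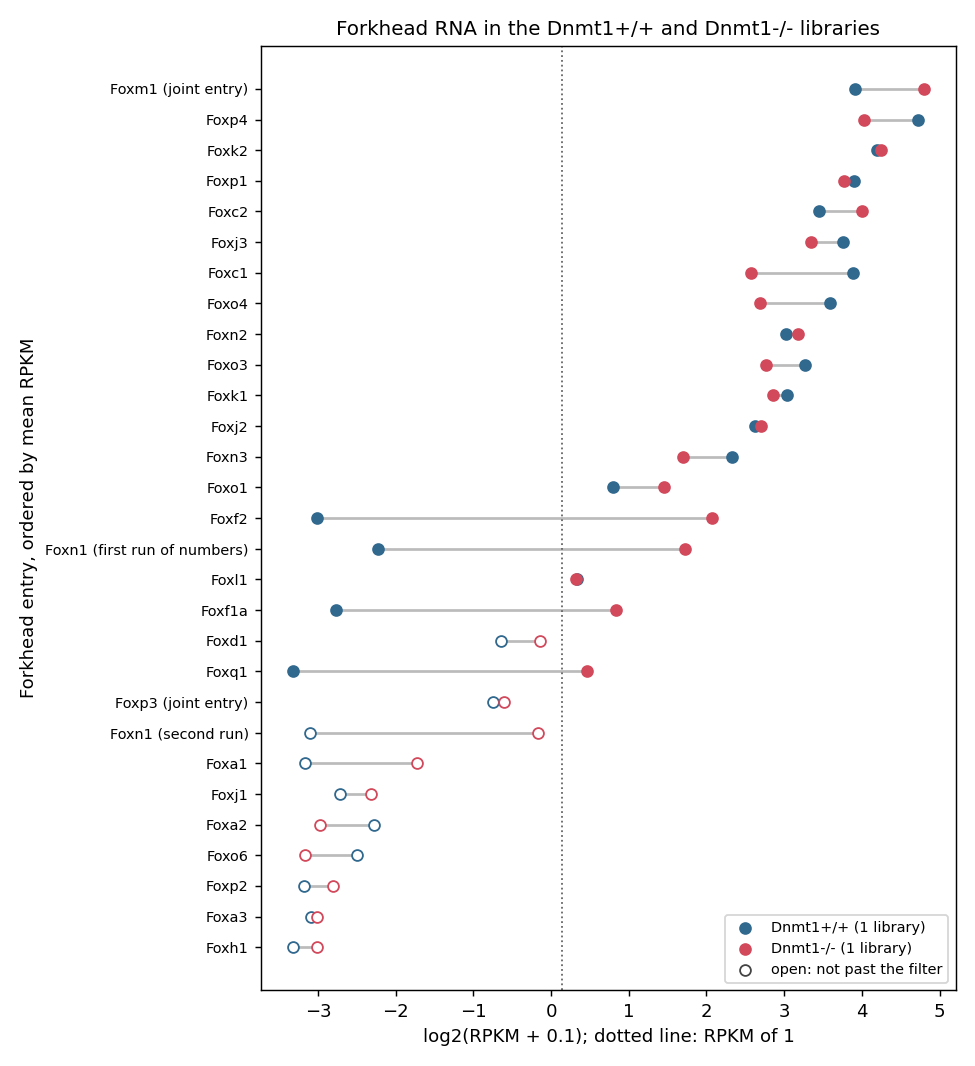
Level of the forkhead entries reported here that have a value above 0, as log2(RPKM + 0.1). Blue marks the Dnmt1+/+ library and red the Dnmt1-/- library, with 1 library per genotype. Open circles mark entries that did not pass the filter. Foxf2, Foxf1a, Foxq1 and the first Foxn1 entry lie left of 1 RPKM in Dnmt1+/+ and right of it in Dnmt1-/-, while Foxm1, Foxp4, Foxk2 and Foxp1 are above it in both.

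Foxf2 and Foxf1a encode the 2 FoxF factors, which are made in the mesenchyme beside the endoderm of the gut and lung and take part in signalling between these layers. Foxf2 was at 0.0235 RPKM in Dnmt1+/+ and 4.12 RPKM in Dnmt1-/- MEFs. Its log2 change of 5.09 was above that of 99.2% of the genes kept, and with the median of all genes subtracted it was 5.24. Foxf2 passed the filter through its Dnmt1-/- value alone, so this rank is in part set by the filter. Foxf1a was at 0.0463 RPKM in Dnmt1+/+ and 1.69 RPKM in Dnmt1-/-, a log2 change of 3.61. Both FoxF genes were thus close to absent in one library and at a low level in the other, and summed to 0.0699 RPKM in Dnmt1+/+ and to 5.81 RPKM in Dnmt1-/-. The Dnmt1-/- level of Foxf2 was above that of 27.0% of the genes kept, and that of Foxf1a above 11.7%.

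The 2 genes lie in different clusters, each together with a FoxC gene and with Foxq1 or Foxl1. On chromosome 13 of mm9, Foxq1 (31650038 to 31652843), Foxf2 (31717524 to 31723275) and Foxc1 (31898504 to 31902504) follow each other on the plus strand. Foxq1, known for its role in the hair shaft, was listed at 0 in the Dnmt1+/+ library and reached 1.28 RPKM in Dnmt1-/-. Foxc1, a mesodermal factor needed in the eye and the skull, was at 14.7 RPKM in Dnmt1+/+ and 5.85 RPKM in Dnmt1-/-. The order of the 3 genes by RPKM was the same in both libraries, with Foxc1 highest and Foxq1 lowest. The lower Foxc1 value, a log2 change of -1.31, thus stood beside 2 genes with higher values. Relative to the median of all genes the Foxc1 change was -1.17.

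On chromosome 8 of mm9, Foxf1a (123608370 to 123611789), Foxc2 (123640038 to 123642794) and Foxl1 (123650957 to 123654544) also lie on the plus strand. Foxc2, a factor of mesoderm and lymphatic vessels, was at 10.8 RPKM in Dnmt1+/+ and 15.9 RPKM in Dnmt1-/-, a log2 change of 0.56. Foxl1, a gene of the mesenchyme below the gut epithelium, was at 1.16 RPKM in Dnmt1+/+ and 1.15 RPKM in Dnmt1-/-, a log2 change of -0.02. In this cluster Foxf1a was the gene past 2-fold. Foxc1 and Foxc2, which are close relatives with overlapping roles in the embryo, had differences of opposite sign, and their summed RPKM was 25.5 in Dnmt1+/+ and 21.8 in Dnmt1-/-.

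**Figure D2:**
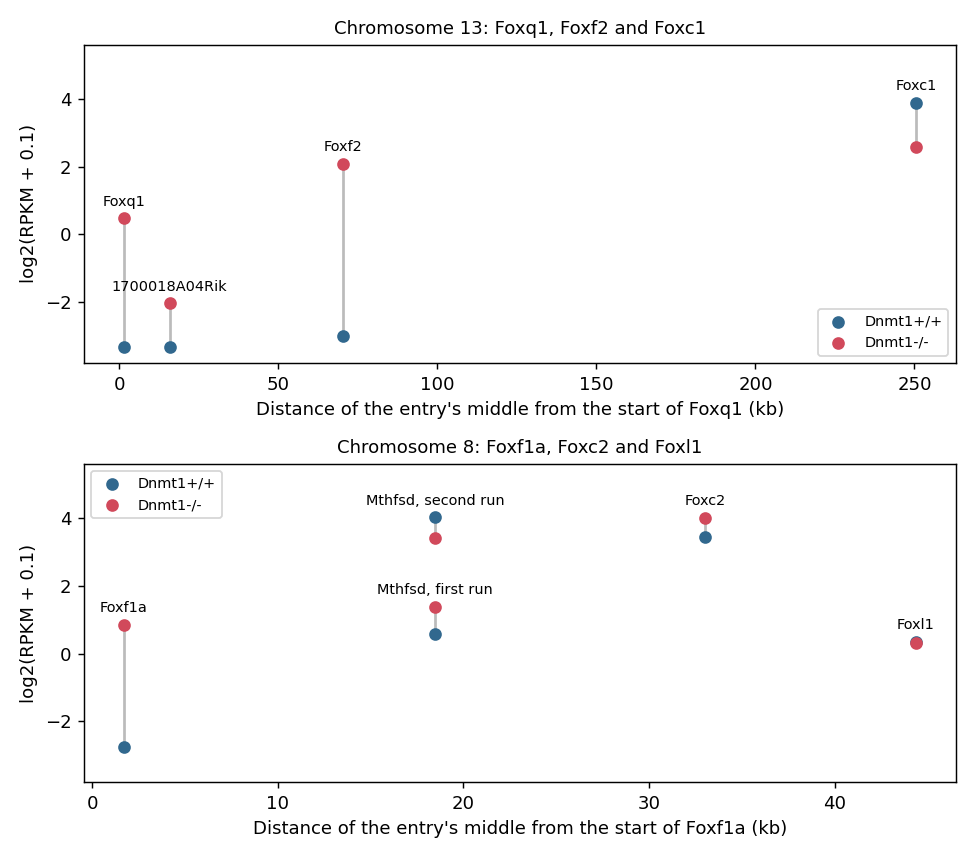
Level, as log2(RPKM + 0.1), of the named entries of the 2 clusters of forkhead genes (the long gene Gmds left out) against distance in kb from the start of the first forkhead gene, in Dnmt1+/+ (blue) and Dnmt1-/- (red) MEFs, with 1 library per genotype; Mthfsd has 2 entries, at the same position. Foxq1, Foxf2 and Foxf1a are far higher in Dnmt1-/-, Foxc1 is lower, and Foxl1 has nearly the same level in both.

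Within 100 kb of the 6 entries past 2-fold and of the 2 clusters lay 14 named entries of other genes, of which 9 passed the filter, and all 9 stayed within 2-fold, where 8.47% of all genes kept were past 2-fold on the higher and 10.9% on the lower side. Their log2 changes lay between -0.86 and 0.82. Between Foxf1a and Foxc2, the 2 entries of Mthfsd were at 1.38 and 16.2 RPKM in Dnmt1+/+ and at 2.51 and 10.5 RPKM in Dnmt1-/-. Next to Foxc1, Gmds was at 46.9 RPKM in Dnmt1+/+ and 37.6 RPKM in Dnmt1-/-. Between Foxq1 and Foxf2, 1700018A04Rik stood at 0 in the Dnmt1+/+ library and at 0.144 RPKM in Dnmt1-/-, too low to pass the filter.

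Some short entries without a gene symbol near these genes differed more. Just before the start of Foxq1, 2 such entries stood at 0 in the Dnmt1+/+ library and at 1.18 and 2.45 RPKM in Dnmt1-/-. An entry of 164 bp, 18.7 kb before Foxf1a, stood at 0 in the Dnmt1+/+ library and at 26.7 RPKM in Dnmt1-/-. The entries without a symbol between Foxf1a and Foxl1 went both ways, with log2 changes of -1.07, 0.66, 0.85 and -0.16. For such short entries the RPKM rests on few bases, and the table does not say what they are.

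The RefSeq promoters of Foxf2 and Foxc1, the 2 genes past 2-fold on chromosome 13 for which a window was at hand, are shown with that of Foxn1 to compare how CpG dinucleotides, the sites of DNA methylation, are spaced in front of genes that were higher or lower. Each line gives the 250 bases before the transcription start in GRCm38.p6, in the direction of the gene, with every CpG in capitals. The coordinates are chr13:31625566-31625815 on the plus strand for Foxf2, chr13:31806396-31806645 on the plus strand for Foxc1 and chr11:78386609-78386858 on the minus strand for Foxn1.
Foxf2: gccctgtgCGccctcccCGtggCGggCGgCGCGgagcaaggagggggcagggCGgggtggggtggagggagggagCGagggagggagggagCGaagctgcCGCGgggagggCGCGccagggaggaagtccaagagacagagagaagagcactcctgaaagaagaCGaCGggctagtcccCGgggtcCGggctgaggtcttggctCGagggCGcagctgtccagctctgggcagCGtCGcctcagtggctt
Foxc1: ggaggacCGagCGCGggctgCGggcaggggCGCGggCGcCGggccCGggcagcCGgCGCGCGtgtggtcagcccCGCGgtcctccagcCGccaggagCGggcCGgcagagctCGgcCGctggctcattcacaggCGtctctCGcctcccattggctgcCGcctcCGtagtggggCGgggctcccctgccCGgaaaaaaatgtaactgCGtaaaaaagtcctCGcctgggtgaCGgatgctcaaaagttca
Foxn1: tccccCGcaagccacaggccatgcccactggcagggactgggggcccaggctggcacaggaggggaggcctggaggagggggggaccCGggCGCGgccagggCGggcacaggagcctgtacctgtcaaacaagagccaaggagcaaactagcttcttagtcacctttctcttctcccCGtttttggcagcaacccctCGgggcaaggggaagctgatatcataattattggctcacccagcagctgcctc
The Foxf2 sequence holds 21 CpGs and 71.6% G+C, the Foxc1 sequence 29 CpGs and 70.8% G+C, and the Foxn1 sequence 7 CpGs and 63.2% G+C. Foxf2 and Foxc1 are thus both rich in CpG although the RNA of one was higher and that of the other lower in Dnmt1-/- MEFs. Foxn1, with fewer CpGs, has 2 entries that were higher in Dnmt1-/-. The Foxn1 entry past the filter is numbered with plus-strand entries, as given below, and may not be RNA of this minus-strand promoter. The RNA data do not measure methylation of these bases.

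Over the family, promoters were richer in CpG than most. Windows of 300 bases, from 250 before to 50 after the start, were found for 24 of the 39 forkhead symbols, in 29 windows. They held a median of 22 CpGs, with a range of 3 to 59, where all 32851 windows of the RefSeq table had a median of 7 and an upper quartile of 20. Of the 29 forkhead windows, 16 were above this quartile. The median G+C content was 62.7%, against 52.7% over all windows. Windows of the broadly expressed Foxk2 and Foxj3 held 59 and 42 CpGs, and those of Foxi1 and Foxr2, listed at 0 in both libraries, held 6 and 3. CpG-rich windows were no mark of expression, however, since Foxd3, Foxi3 and Foxl2, also at 0 in both, held 25, 31 and 27. The letters GTAAACA, a core that many forkhead proteins bind, were searched on both strands. They were present in 1 forkhead window, that of Foxa1, and in 3.65% of all windows.

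Foxn1 is needed for the thymic epithelium and for hair keratinisation, and its loss causes the nude mouse. Its minus-strand locus covers 78171494 to 78200060 of chromosome 11 in mm9, and 3 entries of the table share it. The entry that passed the filter was at 0.114 RPKM in Dnmt1+/+ and 3.21 RPKM in Dnmt1-/-, a log2 change of 3.95. A second entry named Foxn1 was at 0.0170 RPKM in Dnmt1+/+ and 0.791 RPKM in Dnmt1-/- and stayed under the filter. The remaining entry, without a symbol, was at 0.619 RPKM in Dnmt1+/+ and 7.94 RPKM in Dnmt1-/-. All 3 entries were higher in Dnmt1-/-.

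The table gives no strand, but its numbering carries one. Along each chromosome the named entries are numbered in a first run, in which 99.2% of 10346 entries lie on the annotated plus strand, and then in a second run, in which 99.3% of 9301 lie on the minus strand. By this measure 39 of the 40 forkhead entries are in the run of their annotated strand. The exception is the Foxn1 entry that passed the filter, which is in the plus-strand run, while the lower Foxn1 entry is in the minus-strand run. Whether the RNA of this entry is Foxn1 messenger RNA was not tested, and its value is uncertain for that gene. Of the named genes on either side, Unc119 was at 10.8 RPKM in Dnmt1+/+ and 9.68 RPKM in Dnmt1-/-, and Slc46a1 was at 1.85 and 2.26 RPKM. Of 10 entries for epithelial markers, 2 passed the filter, with Krt19 at 6.90 and 0.326 RPKM and the joint entry of Krt14 and Krt17 at 0.0349 and 1.46 RPKM in Dnmt1+/+ and Dnmt1-/-. The other 8 stayed under 1 RPKM. Among them, Krt8 stood at 0 and 0.216 RPKM, Krt18 at 0.0358 and 0.441 RPKM and Grhl2 at 0.00388 and 0.210 RPKM, while Cdh1 was at 0.203 and 0.070 RPKM, Epcam at 0.0466 and 0.00921 RPKM and Esrp1 at 0 in both. Without the filter 4 of the entries were more than 2-fold higher and 2 lower, where 9.92% and 11.1% of all genes were. The summed level of the epithelial entries was 7.55 RPKM in Dnmt1+/+ and 2.79 RPKM in Dnmt1-/-. Without Krt19 it was 0.648 and 2.47 RPKM, of which the joint entry of Krt14 and Krt17 made 0.0349 and 1.46 RPKM. The direction of the sum thus rests on single entries, and the markers' part in the Foxn1 values was not tested.

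**Figure D3:**
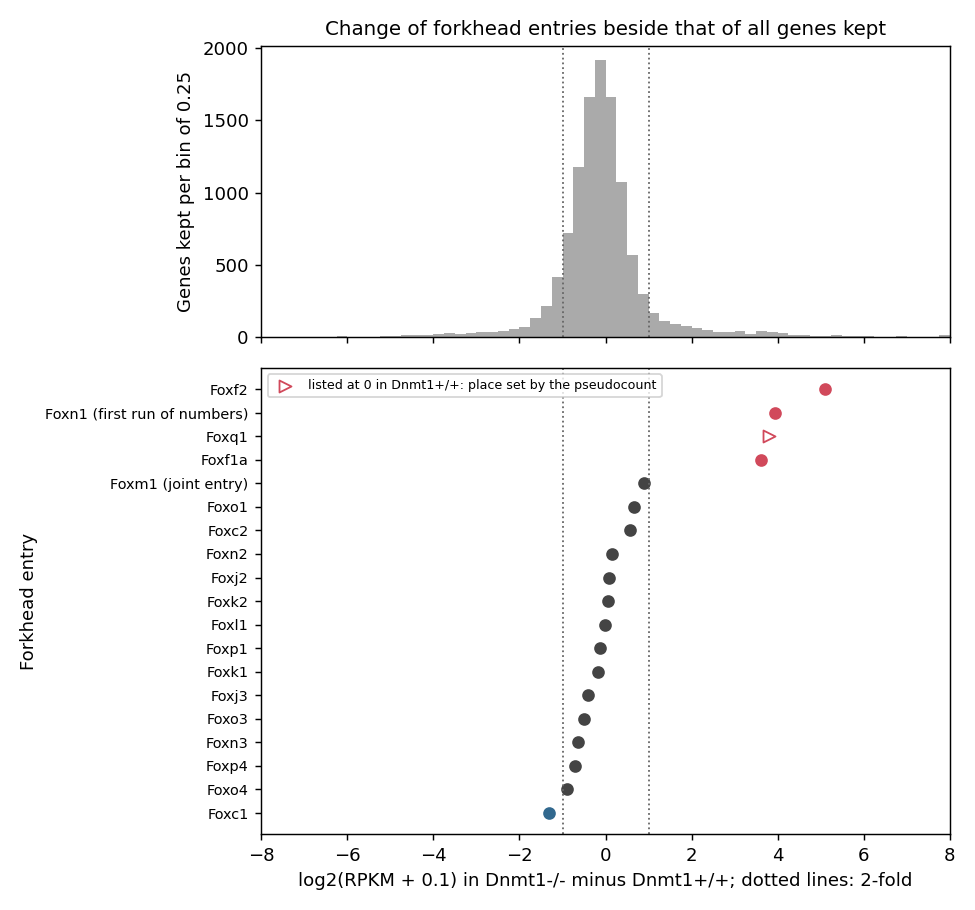
Difference of log2(RPKM + 0.1), Dnmt1-/- minus Dnmt1+/+, with 1 library per genotype. The top shows all 11244 genes kept, as counts per bin of 0.25, and its end bins also hold larger differences. The bottom shows those forkhead entries kept that are reported here. Red points are more than 2-fold higher and blue points more than 2-fold lower in Dnmt1-/-, and the 14 entries between the dotted lines stayed within 2-fold.

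Several forkhead genes are expressed in many tissues. Of subfamilies J, K, M, N, O and P, 12 entries had at least 1 RPKM in Dnmt1+/+, and all 12 stayed within 2-fold, with log2 changes from -0.91 to 0.88, where 4.35% of all genes at this level were past 2-fold on the higher and 11.5% on the lower side. Of these, 5 were above and 7 below 0. Foxk1 and Foxk2, whose products occur in most cell types, were nearly level between the libraries. Foxk2 was at 18.2 RPKM in Dnmt1+/+ and 18.9 RPKM in Dnmt1-/-, and Foxk1 was at 8.14 and 7.17 RPKM. The summed Foxk level was 26.3 RPKM in Dnmt1+/+ and 26.1 RPKM in Dnmt1-/-.

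FoxP proteins act mainly as repressors and form dimers with each other. Foxp4 was at 26.3 RPKM in Dnmt1+/+ and 16.2 RPKM in Dnmt1-/-, a log2 change of -0.70. Foxp1 was at 14.9 and 13.5 RPKM, a log2 change of -0.14 that equals the median of all genes. Foxp2, known from speech and song circuits of the brain, was at 0.0104 and 0.0427 RPKM. The entry that joins 4930524L23Rik with Foxp3, the factor of regulatory T cells, was at 0.494 and 0.560 RPKM, under the filter. Of the blood and immune markers, Ptprc, Cd3e and Cd8a were listed at 0 in both libraries, while Csf1r was at 0.0702 RPKM in Dnmt1+/+ and 6.08 RPKM in Dnmt1-/- and was the 1 entry of 8 that passed the filter. The summed level of these 8 markers was 0.0987 RPKM in Dnmt1+/+ and 6.15 RPKM in Dnmt1-/-.

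Among the FoxJ and FoxN genes, Foxj2 was at 6.07 RPKM in Dnmt1+/+ and 6.43 RPKM in Dnmt1-/-, and Foxj3 was at 13.4 and 10.1 RPKM. Foxn2 was at 8.07 and 8.94 RPKM. Foxn3, tied to cell cycle checkpoints, was at 4.93 RPKM in Dnmt1+/+ and 3.15 RPKM in Dnmt1-/-, a log2 change of -0.63. None of these 4 entries passed 2-fold.

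Foxm1 drives genes of the G2 and M phases and is made in dividing cells. Its joint entry was at 15.0 RPKM in Dnmt1+/+ and 27.7 RPKM in Dnmt1-/-, which moved it from the fourth to the first place among forkhead entries. The log2 change was 0.88, under 2-fold, and 1.02, just past 2-fold, after the median of all genes was subtracted. Genes that FoxM1 is known to activate, with other genes of G2 and mitosis, were all expressed. Of 21 such genes, all passed the filter, 2 were higher and 2 lower by more than 2-fold, near the shares of 8.47% and 10.9% over all genes kept, and their median log2 change was 0.18, against -0.14 for all genes. Birc5, the gene of survivin, was at 88.5 RPKM in Dnmt1+/+ and 203 RPKM in Dnmt1-/-, and Aurkb, a mitotic kinase of the same complex, was at 30.4 and 63.4 RPKM. On the other side, Ccnb2, a B-type cyclin, was at 40.4 RPKM in Dnmt1+/+ and 9.19 RPKM in Dnmt1-/-, and Cenpe, a kinetochore motor, was at 36.1 and 17.4 RPKM. The highest levels in the list were those of Top2a, at 223 and 276 RPKM, Birc5, and Cenpa, at 120 and 144 RPKM. Of the 21 members, 5 were below the median of all genes.

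The FoxO factors act below insulin and PI3K-Akt signalling and turn on genes of cell cycle arrest, stress defence, autophagy and metabolism. Foxo1 was at 1.64 RPKM in Dnmt1+/+ and 2.64 RPKM in Dnmt1-/-, a log2 change of 0.66. Foxo3 was at 9.57 and 6.68 RPKM, a log2 change of -0.51. Foxo4 was at 12.0 and 6.35 RPKM, a log2 change of -0.91, the nearest to 2-fold on the lower side. Foxo4 is X-linked, and the 394 X-linked genes kept had a median log2 change of -0.39, against -0.13 for 10846 autosomal genes. Foxo6, described mainly in the brain, was at 0.0772 and 0.0117 RPKM. Foxo1 was the FoxO gene with a higher value in Dnmt1-/-, and the summed FoxO level was 23.3 RPKM in Dnmt1+/+ and 15.7 RPKM in Dnmt1-/-.

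Of 26 genes known as FoxO targets, 21 passed the filter. Of these, 6 were lower and 1 was higher by more than 2-fold in Dnmt1-/- MEFs, where 10.9% and 8.47% of all genes kept were. The median log2 change was -0.65, and 15 lay below the median of all genes. After subtraction of that median, 4 were lower and 2 higher by this measure, where 8.58% and 9.71% of all genes kept were. Irs2, an adaptor of the insulin receptor, was at 16.0 RPKM in Dnmt1+/+ and 4.62 RPKM in Dnmt1-/-, a log2 change of -1.77. The stress-induced sestrins Sesn1 and Sesn3 had log2 changes of -1.63 and -1.59, with Sesn1 at 29.0 RPKM in Dnmt1+/+ and 9.31 RPKM in Dnmt1-/-. Pik3ip1, an inhibitor of PI3 kinase, was at 8.14 and 3.05 RPKM. Klf2, a factor of endothelium and quiescent T cells, was the gene on the other side, at 5.15 and 14.9 RPKM. The highest levels in the list were those of the autophagy genes Map1lc3b, at 73.1 and 64.2 RPKM, and Gabarapl1, at 34.0 and 34.4 RPKM, and of Cited2, at 50.7 and 83.1 RPKM. None of these 3 was past 2-fold. Many of these genes have other regulators, and Sesn1 is also a target of p53, which both lines lack.

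Of 20 genes that act on FoxO proteins, 19 passed the filter. Of these, 1 was higher and 1 lower by more than 2-fold, where 8.47% and 10.9% of all genes kept were, and the median log2 change was -0.11. Sgk1, a kinase that phosphorylates FoxO proteins, was at 27.4 RPKM in Dnmt1+/+ and 83.6 RPKM in Dnmt1-/-, a log2 change of 1.61. Sirt1, a deacetylase that acts on them, was at 9.65 and 3.79 RPKM, a log2 change of -1.33. Akt1 was at 153 and 190 RPKM, and the 14-3-3 genes Ywhaz and Ywhag, whose proteins hold phosphorylated FoxO in the cytoplasm, were at 159 and 147 RPKM and at 91.9 and 156 RPKM.

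**Figure D4:**
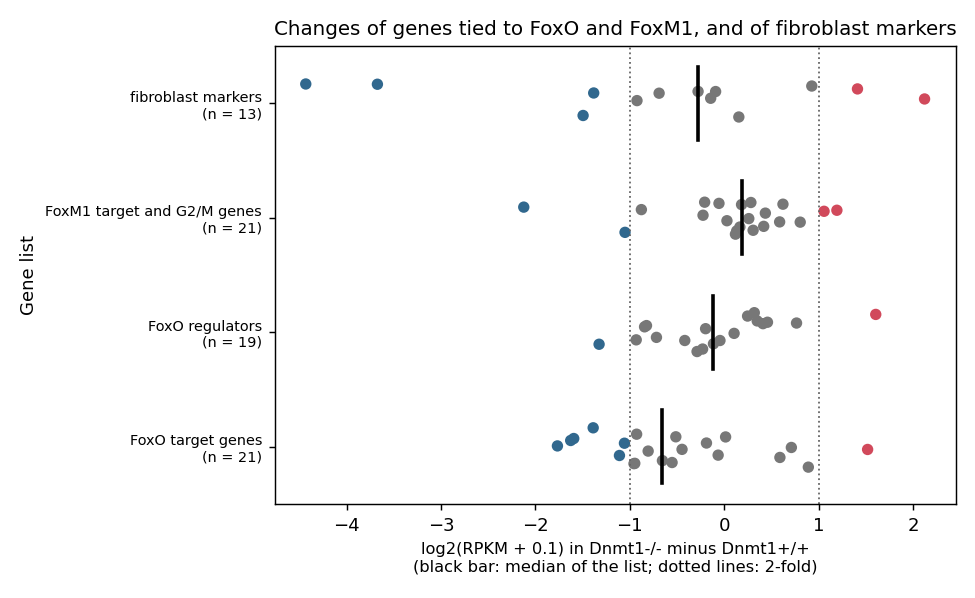
Difference of log2(RPKM + 0.1), Dnmt1-/- minus Dnmt1+/+, of the genes kept in 4 lists (points, 1 per gene, spread vertically for visibility; 1 library per genotype) with the median of each list (bar). The median lies at -0.65 for FoxO target genes, -0.11 for FoxO regulators, 0.18 for FoxM1 target and G2/M genes and -0.28 for fibroblast markers, and red and blue points are past 2-fold.

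The remaining forkhead genes were near or at 0 in both libraries. Foxd1, a factor of kidney stroma, was the highest of them, at 0.542 RPKM in Dnmt1+/+ and 0.804 RPKM in Dnmt1-/-. The FoxA genes, which open chromatin in liver and other endoderm, stayed low. Foxa1 was at 0.0114 and 0.202 RPKM, Foxa2 at 0.106 and 0.0269 RPKM, and Foxa3 at 0.0176 and 0.0237 RPKM. Of the endoderm and liver markers, Alb, Sox17 and Ttr were listed at 0 in both libraries, but Gata4 was at 0.151 RPKM in Dnmt1+/+ and 4.997 RPKM in Dnmt1-/- and Gata6 at 1.89 and 3.59 RPKM. These were the 2 of 8 that passed the filter. The summed level of these 8 markers was 2.10 RPKM in Dnmt1+/+ and 8.996 RPKM in Dnmt1-/-, and its part in the FoxF values was not tested.

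Foxj1, which switches on motile cilia, was at 0.0525 RPKM in Dnmt1+/+ and 0.101 RPKM in Dnmt1-/-. Of 14 entries for its targets and other motile cilia genes, 3 passed the filter and 2 of these were more than 2-fold lower, against 10.9% of all genes kept. This count was 1 with a pseudocount of 1 and 0 where a mean of 1 RPKM or 3 RPKM in one library was required. Rsph9, a radial spoke gene, was at 1.64 and 0.0347 RPKM and Rfx3, a ciliary transcription factor, at 1.36 and 0.338 RPKM. Both passed the filter through their Dnmt1+/+ value alone. Their lower value is thus in part set by the filter, and the share over all genes kept is no like comparison. Foxh1, the partner of Smads in Nodal signalling, stood at 0 in the Dnmt1+/+ library and at 0.0242 RPKM in Dnmt1-/-. Of 6 genes of that pathway, 4 passed the filter and none was past 2-fold, and Nodal was listed at 0 in both libraries. Smad2 was at 19.2 and 21.9 RPKM and Smad4 at 18.0 and 13.4 RPKM.

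Listed at 0 in both libraries were Foxb1, Foxd3, Foxe1, Foxi1, Foxi2, Foxi3, Foxl2, Foxn4, Foxr1 and Foxr2. Among these are genes of defined lineages, such as Foxd3 of the neural crest, Foxe1 of the thyroid, Foxl2 of the ovary and Foxn4 of retinal progenitors. Read counts per entry are not part of the table, and no upper limit on the RNA was computed for a value of 0.

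Among fibroblast markers, collagen and vimentin genes were high in both libraries. Vim was at 2269 RPKM in Dnmt1+/+ and 1873 RPKM in Dnmt1-/-, Col1a1 at 1448 and 898 RPKM and Col1a2 at 1241 and 476 RPKM. Of 14 fibroblast markers 13 passed the filter, of which 2 were higher and 4 lower by more than 2-fold, where 8.47% and 10.9% of all genes kept were. Lum was under the filter, at 0.0997 and 0.0668 RPKM. The lower ones were Thy1, at 4.84 and 0.129 RPKM, Postn, at 177 and 13.7 RPKM, Fn1, at 664 and 235 RPKM, and Col1a2. The higher ones were S100a4, at 290 and 1262 RPKM, and Pdgfra, at 6.95 and 18.7 RPKM. Their summed level was 6604 RPKM in Dnmt1+/+ and 5118 RPKM in Dnmt1-/-. Of 8 endothelial markers, Egfl7 alone passed the filter, at 5.23 and 5.58 RPKM, and Tie1 was listed at 0 in both libraries. Of 8 neural and neural crest markers 3 passed the filter, with Nes at 49.996 and 126 RPKM, Pax6 at 0.0461 and 2.16 RPKM and Tubb3 at 16.9 and 12.9 RPKM, and Elavl4 was listed at 0 in both. The summed level of these 8 was 67.0 RPKM in Dnmt1+/+ and 141 RPKM in Dnmt1-/-. The part of these marker differences in the forkhead values was not tested.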

How the data were processed

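Strand-specific mRNA-seq libraries, 1 of Dnmt1+/+ and 1 of Dnmt1-/- MEFs, were compared. The authors used TopHat for mapping to mm9 and Cufflinks for transcript assembly, and deposited the RPKM values that Cuffdiff gave, with a status per entry. Program versions, and whether strand was used in counting, are not given in the sources used here. The columns are named wild-type and knock-out, which the study defines as Dnmt1+/+ and Dnmt1-/-. Columns with the authors' own fold changes and p-values or q-values were not used.

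Changes were computed as differences of log2(RPKM + 0.1), which understates those of low genes. Genes were kept with status OK, a symbol and at least 1 RPKM in one library, and a change past 2-fold was counted. RPKM holds no read counts, and the number of reads behind a value, and any interval, were not computed. The median change was not subtracted in the main values. The members and gene lists were chosen with earlier results of these data known. Named were the forkhead entries, other than those not reported here, and Dnmt1. From each list, up to 4 genes with the largest higher and 4 with the largest lower values past 2-fold were named. Up to 3 with the highest mean RPKM were added. Sex-linked, Hox and neighbouring genes within 2-fold, and marker genes given for their low level, were picked with their values in view. Alternatives were pseudocounts of 1 and 0.01, other filters on RPKM, any status, joined entries left out, median subtraction and a 1.5-fold threshold, and their use on the lists was added after seeing the data. Strand and gene positions in mm9 were taken from GENCODE on NCBIM37, and promoter sequences from RefSeq, GRCm38.p6. Protein sequences were not used here. Some genes that the rule covers are not reported here, though counts, sums and medians include them. Scripts were tested on simulated data and ran under Python 3.11.15, using pandas 2.3.3, numpy 2.4.6 and matplotlib 3.10.9.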

Additional observations from a re-analysis of the deposited data

How the results depend on the processing

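The count of 4 forkhead entries more than 2-fold higher fell to 2 of 18 where a mean of at least 1 RPKM was required. It was 2 of 16 where at least 3 RPKM was required in one library. Over all genes kept the shares were 7.43% and 6.77%. Foxf2 and Foxn1 remained, and Foxf1a and Foxq1 did not pass either filter. The count was 6 of 28 without a filter, with Foxa1 and the second Foxn1 entry, where 9.92% of all genes were higher. With the median change of all genes subtracted it was 5 of 20, with Foxm1, against 9.71%. At 1.5-fold it was 6 of 20, against 14.1%. The count of 2 lower entries was 5 of 20 at 1.5-fold, with Foxn3, Foxo4 and Foxp4, where 23.7% of all genes kept were lower. It was 2 under the 8 other settings, where 7.12% to 11.4% of all genes were. The median log2 change of forkhead entries, 0.02, was 0.11 without a filter, -0.079 with a mean of at least 1 RPKM, -0.16 with at least 3 RPKM in one library, 0.16 with the median change subtracted and -0.021 without joined entries, so its sign is not fixed by these data. Under other pseudocounts and median subtraction 19 of 20 entries kept their side of 2-fold, Foxm1 being the exception, and no entry past 2-fold changed sign. Several list counts moved as well. With the median subtracted, FoxO target genes past 2-fold lower numbered 4 in place of 6, where 8.58% in place of 10.9% of all genes were. Under this setting FoxM1 target and G2/M genes past 2-fold lower numbered 1 in place of 2. FoxO target genes and endoderm and liver markers past 2-fold higher each numbered 2 in place of 1, where 9.71% in place of 8.47% of all genes were. Other settings moved further list counts.

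No paired analysis was possible because each genotype has 1 library and the labels give no replicate numbers. For the same reason no replicate could be left out. The fitted size of the difference of Foxf2, Foxf1a, Foxq1 and Foxn1 depends on the pseudocount, and that of Foxf2 was 2.32 with a pseudocount of 1 and 6.95 with 0.01.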

Other observations

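The forkhead entries past 2-fold lie mostly in short genes. Of the 6, 5 have a locus under 6 kb, Foxn1 being the exception, while 2 of the other 14 entries kept do, Foxc2 and Foxl1. The 6 kb limit was not planned, and it lies between Foxf2, at 5.75 kb, and Foxo4, at 6.45 kb. Of the short ones, Foxf1a, Foxf2 and Foxq1 passed the filter through their Dnmt1-/- value alone. The split is thus a description only. Over all genes kept, 21.7% of the 1403 genes with a locus under 6 kb were past 2-fold in either direction, against 19.0% of the genes with a longer locus.

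The presence of several entries at one locus is not particular to Foxn1. Altogether 127 symbols have an entry in both runs of numbers at the same position, among them Mthfsd between Foxf1a and Foxc2. Its entry in the run of its annotated strand was at 16.2 RPKM in Dnmt1+/+ and 10.5 RPKM in Dnmt1-/-, and its other entry was at 1.38 and 2.51 RPKM, so that the 2 differences had opposite signs.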
